A study of Homo sapiens with 4 samples.

Results

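VCX3B on cells and off cells are melanoma cells from the same library that differ in whether RNA of VCX3B, an X-linked germ cell gene, was found in them. They were chosen in barcode set 3 among 1818 cells with at least 20000 unique molecular identifiers (UMIs, tags that mark each captured RNA molecule once), of 2140 cells in the set. On cells had 5 or more VCX3B UMIs and off cells had 0. Set 3 held 1111 on cells and 227 off cells, and 480 cells with 1 to 4 VCX3B UMIs belonged to neither group. The same rule in barcode set 4 gave 501 on cells and 791 off cells among 1827 cells of that depth, with 535 cells between them. Together the on and off cells were 2630 of the 8173 cells in the table. VCX3B itself chose the groups, so its values, and those of the other VCX genes, are given as a description only.

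The cells came from 4 human melanoma lines profiled by droplet-based 3' RNA sequencing of polyadenylated RNA, 1 library per line. WM239A is a poorly metastatic line, and its subclones are 113/6-4L, with a high potential for lung metastasis, and 131/4-5B1 and 131/4-5B2, both with a high potential for brain metastasis. No treatment is given for any of them. Cell names end in a suffix from 1 to 4, called barcode sets 1 to 4 here, and nothing in the sources used ties a suffix to a line. Each set is therefore 1 unlabelled library: no comparison between lines was made, no test was run, and all intervals below are at 95% and cover counting error only.

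VCX genes (variable charge, X-linked) form a small family on the short arm of the X chromosome, with relatives on the Y chromosome, and encode small proteins made in male germ cells. In human cells the VCX3A protein has been found to bind the mRNA cap and the decapping enzyme DCP2. Genes with this pattern of use are called cancer-testis genes: they are silent in most adult tissues, commonly with DNA methylation at their promoters, and some tumours, melanoma among them, transcribe them again. The question put to the counts is whether cells with and without VCX3B RNA also differed in other genes, as separate clones may, or in VCX genes alone. The files hold no measurement of DNA methylation, chromatin or genotype, so an epigenetic state and a clone cannot be told apart from them directly.

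The promoter windows of VCX3B and VCX are printed because these 2 genes went together from cell to cell. Each window runs from 250 bases before to 50 bases after the start of the gene in RefSeq on GRCh38.p14, and capitals mark CG pairs, the positions at which DNA can be methylated. The VCX3B window lies at chrX:8464580-8464879 on the plus strand and the VCX window at chrX:7842921-7843220 on the plus strand.
VCX3B: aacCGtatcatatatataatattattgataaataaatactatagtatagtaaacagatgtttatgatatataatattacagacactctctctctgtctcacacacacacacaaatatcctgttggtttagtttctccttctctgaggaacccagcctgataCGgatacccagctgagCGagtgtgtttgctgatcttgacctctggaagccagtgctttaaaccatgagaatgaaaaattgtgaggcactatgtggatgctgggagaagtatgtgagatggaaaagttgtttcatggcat
VCX: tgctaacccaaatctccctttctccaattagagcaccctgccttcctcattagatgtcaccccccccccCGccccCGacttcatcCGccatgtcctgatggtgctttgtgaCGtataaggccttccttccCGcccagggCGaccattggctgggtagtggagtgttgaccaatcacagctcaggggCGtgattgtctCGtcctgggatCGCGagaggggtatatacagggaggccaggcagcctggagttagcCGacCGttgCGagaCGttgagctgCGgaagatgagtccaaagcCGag
A single annotated start was taken per gene, and the starts used in these cells are not known. The 2 windows may therefore not lie at matching positions of the genes. Their CG counts and identity describe the annotated starts and do not compare the promoters in use. The VCX3B window held 3 CG pairs and the VCX window 16. Of 35116 RefSeq windows of this length, 81.8% held at least 3 and 47.5% held at least 16, with a median of 14. In an alignment the 2 windows were identical at 48.9% of positions and their longest shared run was 7 bases. The VCX3B window was closer to those of VCX3A and VCX2, with 86.9% and 83.2% identity. At the other end of the transcript, where 3' libraries are read, the last 300 bases of VCX3B and VCX were 93.1% identical with a shared run of 137 bases. The last 300 bases of VCX3B and VCX3A were also 93.1% identical, with a shared run of 88 bases. No source used here says how such reads were shared out among the family, so levels of single VCX genes are uncertain.

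On and off cells were both melanocytic by their transcripts. PMEL, a melanosome matrix protein, stood at 5013 CPM (UMIs per 1000000 UMIs of the group) in on cells and 4736 CPM in off cells of set 3, and MITF, the lineage transcription factor, at 259 and 263 CPM. Summed levels of 6 fibroblast markers with a row in the table were 3.64 CPM in on cells and 3.70 CPM in off cells of set 3, and 4.84 and 5.08 CPM in set 4. Median depth was 36782 UMIs in on cells and 33651 in off cells of set 3, and 37475 and 34344 UMIs in set 4. After every cell was thinned to 20000 UMIs, the median number of detected genes was 4090 in on cells and 4095 in off cells of set 3, and 4119 and 4110 in set 4. Median mitochondrial shares were 6.93% and 6.77% in set 3, and 6.63% and 6.67% in set 4. A barcode sequence occurred in 2 sets in 39 cases, 8 of them between sets 3 and 4, and none in 3 sets.

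VCX3B was spread over cells far more unevenly than most other genes of its level. In set 3 its median was 10 UMIs in on cells, with a maximum of 76, and in set 4 the median was 9 and the maximum 40. On cells made up 61.1% of the deep cells of set 3 (interval 58.8% to 63.4%) and off cells 12.5% (11% to 14.1%). In set 4 on cells made up 27.4% (25.4% to 29.5%) and off cells 43.3% (41.0% to 45.6%). The variance over the mean of VCX3B across deep cells (the Fano factor, which is 1 for random counting) was 6.38 in set 3 and 7.99 in set 4. Of 295 genes whose mean lay within 0.32 of that of VCX3B on the log2 scale in set 3, 289 had a lower Fano factor, with a median of 1.98. All 599 such genes in set 4 had a lower one, with a median of 1.45. Such genes had no UMI in a median of 0.55% of cells in set 3 and 6.62% in set 4, against the 12.5% and 43.3% of cells without VCX3B. The largest share among them was 14.9% in set 3, above that of VCX3B, and 31.3% in set 4, below it.

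**Figure D1:**
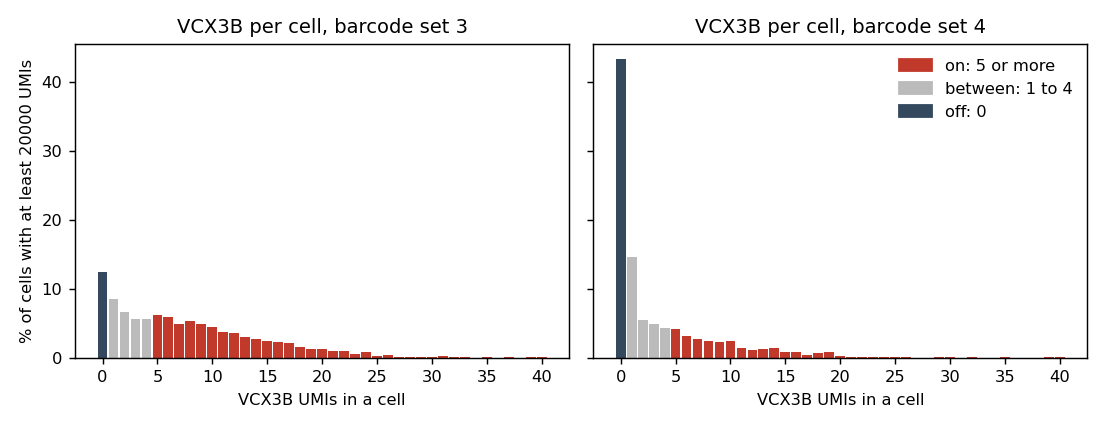
Share of cells with at least 20000 UMIs (vertical axis, %) at each number of VCX3B UMIs (horizontal axis, up to 40; 3 cells of set 3 lay above), in barcode sets 3 and 4, with on cells in red, cells between in grey and off cells in dark blue. The bar at 0 holds 12.5% of cells in set 3 and 43.3% in set 4, and the counts above it form a broad tail with no gap at the threshold of 5.

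No gap separated on cells from the rest. In set 3, 102 cells had 4 VCX3B UMIs and 113 had 5; in set 4 the numbers were 80 and 75. The off group also depended on depth. In set 3 off cells made up 16.5% of cells with 20000 to 30000 UMIs, 12.5% of those with 30000 to 40000, 8.89% of those with 40000 to 50000 and 9.72% of those with 50000 to 60000. In set 4 they made up 51.4%, 40.8%, 42.6% and 31.4% of the same depth ranges. With every cell thinned to 20000 UMIs, 41.3% of deep cells were on and 18.1% off in set 3, and 16% were on and 50.03% off in set 4. A count of 0 therefore did not mark a fixed set of cells, and an off cell may hold VCX3B RNA that was not sampled.

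Outside sets 3 and 4 the family was nearly absent. Over all 2121 cells of set 1 VCX3B had 7 UMIs, all in 1 cell, and over all 1779 cells of set 2 it had 2 UMIs in 2 cells. VCX had 1 UMI in each of these sets, and VCX3A and VCX2 had 0. These sets are other libraries, so their near-zero shares do not measure free RNA within sets 3 and 4.

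VCX followed VCX3B. In set 3 VCX stood at 103.9 CPM in on cells (interval 100.8 to 107.0) and 6.00 CPM in off cells (4.41 to 7.97), a ratio of 17.3 (13.0 to 23.6). In set 4 it stood at 94.0 CPM in on cells (89.8 to 98.5) and 2.41 CPM in off cells (1.87 to 3.06), a ratio of 39.0 (30.5 to 50.5). At least 1 VCX UMI was found in 93.7% of on cells and 18.5% of off cells of set 3, and in 91.4% and 7.21% in set 4; no off cell had more than 3. VCX UMIs were thus fewer in off cells but not absent from them. The level in off cells was higher in set 3, where the level over all cells of the set was also higher, at 73.1 CPM against 34.6 CPM in set 4. Free RNA and expression that sampling missed were not told apart.

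VCX3A was weaker than VCX and also higher in on cells. It stood at 8.46 CPM in on cells and 0.765 CPM in off cells of set 3, a ratio of 11.05 (5.03 to 30.3). In set 4 it stood at 10.8 CPM in on cells and 0.432 CPM in off cells, a ratio of 24.9 (14.0 to 49.0). VCX2 had 13 UMIs over the on cells and 0 over the off cells of set 3, and 4 and 0 in set 4, too few to give a direction. VCX3B had 312 CPM in on cells of set 3 and 269 CPM in on cells of set 4. Set against 3 counts over the off group, VCX3B was 815-fold higher in on cells of set 3 and 2488-fold higher in set 4. The choice of groups fixes these values, so they set no limit on VCX3B in off cells.

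VCX rose over bins of VCX3B UMIs. The bins are cut on VCX3B itself, and a low count can come from sampling. They therefore cannot tell a graded level from 2 states, and the values are a description only. In set 3 the VCX level was 6.00 CPM in cells with 0 VCX3B UMIs, 12.4 CPM with 1, 37.0 CPM with 2 to 4, 71.1 CPM with 5 to 9 and 126 CPM with 10 or more. In set 4 the levels were 2.41, 9.70, 34.6, 68.2 and 120 CPM in the same order. Across the bins with VCX3B, VCX stood at 0.324 to 0.448 UMIs per VCX3B UMI in set 3 and at 0.340 to 0.412 in set 4. VCX3A stood at 0.0254 to 0.0390 in set 3 and at 0.0338 to 0.0420 in set 4. VCX per VCX3B UMI thus varied little over bins in which VCX itself differed by more than 10-fold. How far reads were shared among their near-identical 3' ends was not tested.

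**Figure D2:**
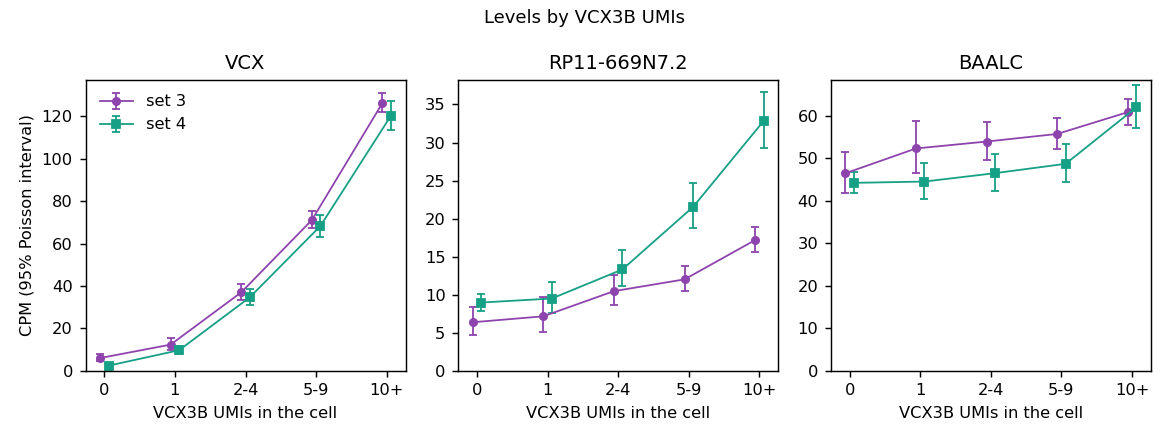
Level in CPM (vertical axes, from 0) of VCX, RP11-669N7.2 and BAALC in cells grouped by their VCX3B UMIs (horizontal axes), for set 3 (circles) and set 4 (squares), with exact Poisson intervals at 95%. VCX climbs from 6.00 to 126 CPM in set 3 and from 2.41 to 120 CPM in set 4, RP11-669N7.2 from 6.38 to 17.2 and from 8.97 to 32.8 CPM, and BAALC from 46.4 to 60.8 and from 44.2 to 61.9 CPM.

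Other genes differed little between on and off cells. Of 4689 genes with at least 20 CPM in on or off cells of both sets, VCX names left out, 2 were at least 1.5-fold apart in set 3 on the log2(CPM + 1) scale, which is 0.0427% of the genes compared. In set 4 none was (0%), and none was so in both sets. At a log2 difference of 0.32, 24 genes (0.512%) passed in set 3 and 10 (0.213%) in set 4, and none passed in both in the same direction. The log2 differences had an SD of 0.10 in set 3 and 0.09 in set 4, where counting error alone gave a gene a median SD of 0.08 and 0.06. In set 3 99.5% of genes lay within 0.32 of 0, and in set 4 99.8%. The difference had the same sign in both sets for 2840 of the 4689 genes (60.6%).

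Both genes past 1.5-fold in set 3 were lower in on cells there, and neither was lower in on cells in set 4. C11orf96, a gene of chromosome 11 of little known function, stood at 32.8 CPM in on cells and 142 CPM in off cells of set 3, a log2 difference of -2.08. One off cell with 55185 UMIs held 872 of the 1112 C11orf96 UMIs in the off group, and without that cell the off level was 30.8 CPM and the log2 difference 0.09. In set 4 C11orf96 stood at 28.8 CPM in on cells and 26.2 CPM in off cells. The same cell held 645 of the 1704 off-cell UMIs of IER3, an immediate-early stress gene, which stood at 149 CPM in on cells and 217 CPM in off cells, or 136 CPM in off cells without it. ISG15, an interferon-induced ubiquitin-like protein, stood at 18.9 CPM in on cells and 29.3 CPM in off cells of set 3, and at 26.3 and 22.0 CPM in set 4. Of the 230 ISG15 UMIs in off cells of set 3, 48 lay in 1 cell.

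**Figure D3:**
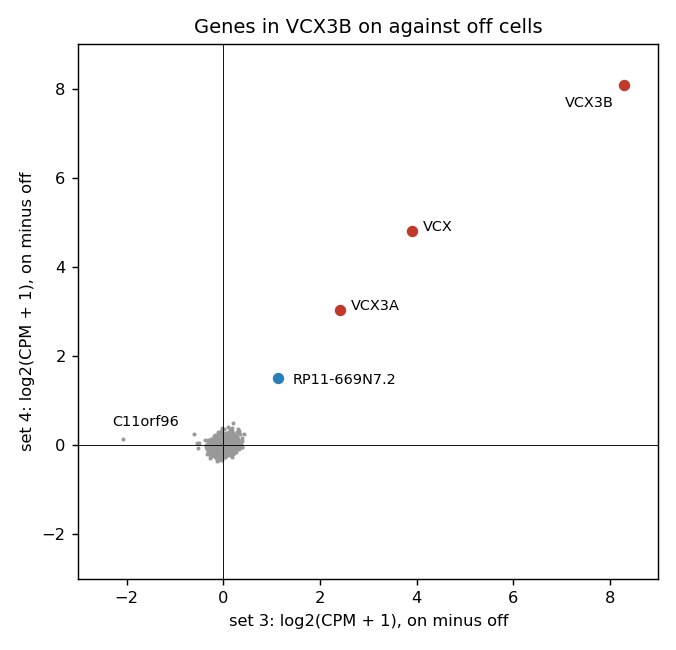
Each point is a gene, at its difference on minus off in log2(CPM + 1) in set 3 (horizontal axis) and set 4 (vertical axis); grey points are the 4689 measured genes without VCX names, red points VCX3B, VCX and VCX3A, and the blue point RP11-669N7.2. The grey points lie around 0 in both sets except C11orf96 at -2.08 in set 3, whereas VCX lies at 3.91 and 4.80, VCX3A at 2.42 and 3.04 and RP11-669N7.2 at 1.12 and 1.497.

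Most of the genes that were farthest apart in set 3 were closer to 0 in set 4. The 10 genes farthest above 0 in set 3 had log2 differences of 0.33 to 0.42 there, and in set 4 they ranged from -0.05 to 0.26, with 7 of 10 above 0 and a median of 0.03. Of the 10 farthest below 0 in set 3, 4 were below 0 in set 4. CTSH and MDM2 stayed farthest above 0 in set 4, each at 0.26. CTSH, a lysosomal protease, was the highest of the first 10, at 28.1 CPM in on cells and 20.8 CPM in off cells of set 3, and at 28.4 and 23.6 CPM in set 4. PPP1R37 stood at 24.5 CPM in on cells and 18.5 CPM in off cells of set 3, and at 23.9 and 24.5 CPM in set 4. RCAN1, an inhibitor of calcineurin, stood at 47.1 CPM in on cells and 68.5 CPM in off cells of set 3, and at 37.6 and 39.3 CPM in set 4. DDIT4, a stress-induced inhibitor of mTOR signalling, stood at 34.5 and 49.0 CPM in set 3, and at 24.1 and 23.2 CPM in set 4. The off cell of set 3 with most C11orf96 UMIs also held 51 DDIT4 UMIs. Without that cell the off level of DDIT4 was 42.8 CPM, and its log2 difference went from -0.49 to -0.30.

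A few genes had a small difference of nearly the same size in both sets. BAALC, first described in brain and acute leukaemia, stood at 58.7 CPM in on cells and 46.4 CPM in off cells of set 3, a ratio of 1.26 (1.13 to 1.42). In set 4 it stood at 55.2 CPM in on cells and 44.2 CPM in off cells, with an interval of 1.15 to 1.36 for the ratio. It was graded, at 46.4, 52.3, 53.9, 55.7 and 60.8 CPM over the VCX3B bins of set 3 and at 44.2, 44.5, 46.5, 48.7 and 61.9 CPM over those of set 4. ZMAT3, an RNA-binding protein induced by p53, had ratios of 1.24 (1.06 to 1.45) and 1.29 (1.15 to 1.45). MDM2, the ubiquitin ligase of p53, had ratios of 1.29 (1.08 to 1.56) and 1.21 (1.06 to 1.37). IFI27L2 had ratios of 1.23 (1.09 to 1.41) and 1.21 (1.10 to 1.33), and IL10RB, a chain of cytokine receptors, 1.22 (1.02 to 1.47) and 1.23 (1.09 to 1.39).

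The genes lower in on cells of both sets differed by as little. SEH1L, a nucleoporin of chromosome 18, stood at 27.3 CPM in on cells and 33.3 CPM in off cells of set 3, a ratio of 0.819 (0.716 to 0.941). In set 4 it stood at 27.8 CPM in on cells and 34.2 CPM in off cells, a ratio of 0.812 (0.730 to 0.904). SMC6, a subunit of a DNA repair complex of the SMC family, had ratios of 0.829 (0.705 to 0.978) and 0.834 (0.732 to 0.950). TRIB3, a pseudokinase induced by amino acid and ER stress, had ratios of 0.853 (0.793 to 0.918) and 0.843 (0.780 to 0.910). ERBB2IP, a membrane scaffold, had ratios of 0.820 (0.719 to 0.938) and 0.859 (0.769 to 0.958). These genes were picked for being farthest from 0 in both sets, so their agreement between the sets follows in part from how they were picked.

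One weak transcript without a VCX name, RP11-669N7.2, was more than 2-fold higher in on cells of both sets. With a minimum of 2 CPM, 10856 genes could be compared: 57 (0.525%) were 1.5-fold apart in set 3, 20 (0.184%) in set 4, and 2 (0.0184%) in both in the same direction, PTN and RP11-669N7.2. Both were chosen after their values were seen. RP11-669N7.2 carries the name of a genomic clone, and no annotation of it was used here. Its position and any relation to the VCX genes were therefore not determined. It stood at 15.1 CPM in on cells (interval 13.9 to 16.3) and 6.38 CPM in off cells (4.73 to 8.41) of set 3, a ratio of 2.36 (1.77 to 3.22). In set 4 it stood at 27.1 CPM in on cells (24.9 to 29.5) and 8.97 CPM in off cells (7.89 to 10.2), a ratio of 3.03 (2.60 to 3.53). A UMI was found in 25.5% of on cells and 12.3% of off cells of set 3, and in 36.3% and 14.9% in set 4. No single cell made this difference: the most in 1 on cell was 13 UMIs of 633 in set 3 and 16 of 527 in set 4.

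The clone-named transcript was graded with VCX3B over a narrower range than VCX: its off-cell level was 0.423 of its on-cell level in set 3 and 0.331 in set 4, against 0.0577 and 0.0257 for VCX. Over the VCX3B bins of set 3 it stood at 6.38, 7.16, 10.5, 12.0 and 17.2 CPM, and over those of set 4 at 8.97, 9.50, 13.3, 21.5 and 32.8 CPM. Over all cells of sets 1 and 2, where VCX3B was nearly absent, it stood at 2.95 and 2.16 CPM. PTN, the secreted growth factor pleiotrophin, was scarce: it stood at 3.14 CPM in on cells and 1.66 CPM in off cells of set 3, and at 5.04 and 2.99 CPM in set 4.

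Neighbours of the VCX genes on the X chromosome were checked next. Of 14 listed genes around VCX3B with a row in the table, 2 reached 20 CPM in both sets: HDHD1, a pseudouridine phosphatase, and GPR143, a melanosome receptor. Their log2 differences were -0.04 and 0.04 in set 3, and 0.11 and 0.05 in set 4. PNPLA4, a lipase gene that lies between VCX and VCX2 in the RefSeq order, missed the minimum in set 4. It stood at 21.4 CPM in on cells and 17.99 CPM in off cells of set 3, a ratio of 1.19 (0.996 to 1.43), and at 19.3 and 14.4 CPM in set 4, a ratio of 1.34 (1.16 to 1.55). ARSE, an arylsulfatase gene farther towards the end of the arm, stood at 2.79 and 1.66 CPM in set 3, a ratio of 1.68 (0.946 to 3.25). In set 4 ARSE stood at 4.07 and 2.59 CPM, a ratio of 1.57 (1.13 to 2.19). STS, the steroid sulfatase gene between VCX3A and VCX, stood at 1.93 CPM in on cells and 1.79 CPM in off cells of set 3, and at 2.06 and 2.34 CPM in set 4. The ratios of PNPLA4 and ARSE were far below those of the VCX genes, and the intervals of HDHD1, GPR143 and STS included a ratio of 1 in both sets.

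Few other cancer-testis genes could be measured, and those differed little between on and off cells. Of 31 X-linked cancer-testis genes with a row in the table, 5 were measured. Their median log2 differences were 0.09 and 0.04, against -0.01 and 0.00 over all measured genes. None of the 5 was 1.5-fold apart in either set, but only 0.0427% of all measured genes were so in set 3 and 0% in set 4. That count thus says nothing particular to these genes. PAGE5 stood at 764 CPM in on cells and 719 CPM in off cells of set 3, and at 735 and 725 CPM in set 4. MAGEA1 stood at 40.6 and 36.6 CPM in set 3, and at 44.2 and 40.6 CPM in set 4. PRAME, a tumour antigen gene on an autosome, stood at 147 and 138 CPM in set 3, and at 141 and 132 CPM in set 4. UMIs of all 3 were found in off cells as well.

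Genes of DNA methylation and chromatin repression were close to level. Of 21 measured, 10 were higher and 11 lower in on cells of set 3, and 9 and 12 in set 4, with medians of -0.01 in each. None was 1.5-fold apart, as for nearly all measured genes, of which 0.0427% were so in set 3 and 0% in set 4. DNMT1, the enzyme that copies DNA methylation at replication, stood at 115 CPM in on cells and 112 CPM in off cells of set 3, and at 122 and 120 CPM in set 4. SUZ12, a subunit of Polycomb repressive complex 2, stood at 41.4 and 46.3 CPM in set 3, and at 44.2 and 47.4 CPM in set 4. Of 10 measured genes of mRNA decapping, 5 were higher and 5 lower in on cells of set 3, and 3 and 7 in set 4. DCP2, the catalytic subunit, stood at 25.2 and 28.2 CPM in set 3, and at 26.9 and 28.4 CPM in set 4. Levels of these enzymes' mRNAs say nothing of methylation at a given gene.

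Gene lists of stress, antigen presentation and sterol pathways differed by small amounts. Over all 4689 measured genes, 2548 were lower in on cells of set 3 and 2439 in set 4, and nothing particular to a list is read from its count. Of 17 measured genes of ER stress and the amino acid response, 15 were lower in on cells of set 3 and 14 in set 4, with median log2 differences of -0.11 and -0.12. NUPR1, a stress-induced chromatin protein, stood at 241 CPM in on cells and 271 CPM in off cells of set 3, and at 110 and 124 CPM in set 4. Of 7 measured p53 response genes, 5 were higher in on cells of set 3 and all 7 in set 4, with medians of 0.09 and 0.25. The summed level of all 15 listed p53 genes had the opposite sign in set 3, at 922 CPM in on cells and 967 CPM in off cells, of which GDF15 made up 499 and 562 CPM. In set 4 the sums were 873 and 804 CPM. Of 9 measured genes of the MHC class I pathway, 6 were higher in on cells of set 3 and 8 in set 4, with medians of 0.05 and 0.15; HLA-B stood at 177 and 157 CPM in set 3, and at 151 and 122 CPM in set 4. Of 13 measured genes of cholesterol synthesis, 9 were lower in on cells of set 3 and 10 in set 4, with medians of -0.07 and -0.06.

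Genes of G2 and M phase leaned in opposite directions in the 2 sets, a contrast that was not tested. Of 38 measured genes of G2 and M phase, 31 were higher in on cells of set 3, with a median of 0.05, and 34 were lower in on cells of set 4, with a median of -0.10. The share of a cell's UMIs from this list had a median of 0.223% in on cells and 0.188% in off cells of set 3, and of 0.275% and 0.319% in set 4. Of 24 measured S phase genes, 19 were higher in on cells of set 3 and 12 in set 4. The part of the cell cycle in the other differences was not tested beyond repeating the counts in cells with a low share of this list.

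Differentiation genes were close to level by their median. Of 20 measured melanocytic genes, 9 were higher in on cells of set 3 and 13 in set 4, with medians of -0.01 and 0.02. TYR, the enzyme of the first step of melanin synthesis, was the one farthest below, at 124 CPM in on cells and 143 CPM in off cells of set 3, and at 122 and 137 CPM in set 4. S100B, a calcium-binding melanoma marker, stood at 1381 and 1178 CPM in set 3, and at 1391 and 1220 CPM in set 4. APOD, a lipid carrier, stood at 282 and 231 CPM in set 3, and at 199 and 176 CPM in set 4.

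Differences that lay along whole chromosomes were compared because clones of a tumour line often differ in chromosome copies. Of the 4689 measured genes 4634 could be placed on a chromosome through RefSeq symbols. Chromosome 18 had the lowest median of the 23 chromosomes in both sets. Of its 66 measured genes, 50 (75.8%) were lower in on cells of set 3, with a median log2 difference of -0.05, and 60 (90.9%) in set 4, with a median of -0.08. The chromosome's summed level was 6436 CPM in on cells and 6631 CPM in off cells of set 3, a log2 difference of -0.04 (-0.06 to -0.03), and 6606 and 7000 CPM in set 4, a log2 difference of -0.08 (-0.09 to -0.07). By summed level chromosome 4 was slightly below chromosome 18 in set 3. Chromosome 7 was the highest in set 4, with 208 of 269 genes higher in on cells and a median of 0.05, but in set 3 139 of 269 were higher and the median was 0.00. The X chromosome, VCX genes left out, had medians of 0.00 in set 3 and 0.01 in set 4.

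**Figure D4:**
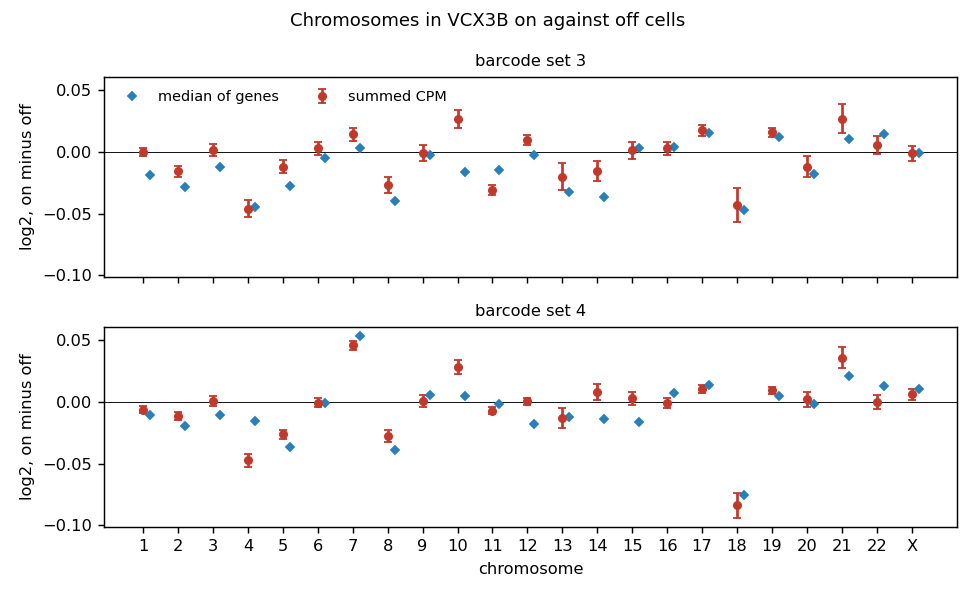
Difference on minus off in log2 (vertical axes) for each chromosome (horizontal axis) in set 3 (above) and set 4 (below), as the summed CPM of its genes (circles, with counting intervals at 95%) and as the median of its measured genes (diamonds). Chromosome 18 has the lowest median in both panels, at -0.05 and -0.08, and chromosome 7 the highest in set 4 only, at 0.05.

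Single cells varied in their chromosome 18 share in both groups. The share of a cell's UMIs from chromosome 18 genes had a median of 0.650% in on cells and 0.677% in off cells of set 3, and of 0.660% and 0.718% in set 4. From the 10th to the 90th percentile it ran from 0.498% to 0.797% in on cells and from 0.505% to 0.811% in off cells of set 3, and from 0.517% to 0.813% and from 0.535% to 0.831% in set 4. In set 1 it ran from 0.541% to 0.765% over all deep cells, and in set 2 from 0.492% to 0.668%. The on cells of sets 3 and 4 showed 2 humps, 1 between 0.55% and 0.60% and 1 between 0.70% and 0.75%. In set 4 16.2% of on cells and 9.86% of off cells lay in the lower of these intervals, and 15.4% and 20.2% in the upper one.

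**Figure D5:**
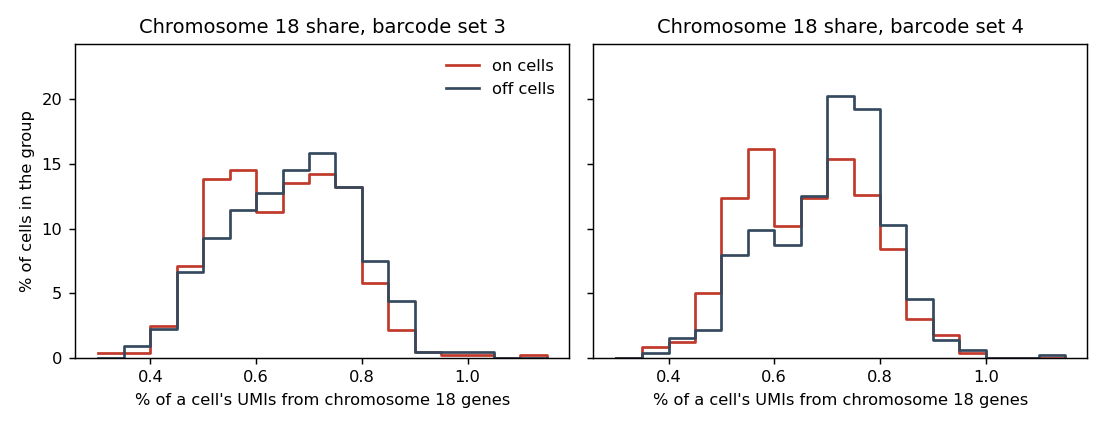
Share of a group's cells (vertical axis, %) by the percentage of a cell's UMIs that came from chromosome 18 genes (horizontal axis, intervals of 0.05), for on cells (red) and off cells (dark blue) of sets 3 and 4. Both groups span both humps; in set 4 the interval from 0.55% to 0.60% holds 16.2% of on cells and 9.86% of off cells.

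On cells were found at every chromosome 18 share. When the deep cells of a set were ordered by this share and cut into 5 groups of equal size, off cells made up 10.4%, 10.5%, 13.7%, 14.0% and 13.7% of these groups in set 3, low to high. In set 4 they made up 35.0%, 36.2%, 46.6%, 48.5% and 50.3%. On cells made up 62.9% of the lowest and 54.9% of the highest group in set 3, and 36.9% and 24.04% in set 4. The median chromosome 7 share rose from 3.87% in the lowest to 4.83% in the highest group of set 3. In set 4 it rose from 4.41% to 4.92%. Across cells the shares of both chromosomes thus rose together, whereas on cells of set 4 were lower in chromosome 18 and higher in chromosome 7. The median share of G2 and M genes was also higher in the highest of these groups than in the lowest: it was 0.142% in the lowest and 0.366% in the highest group of set 3, and 0.186% and 0.425% in set 4. Its part in the pattern was not tested. In cells under the median of that list, the summed chromosome 18 difference was -0.07 in set 3 and -0.07 in set 4.

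RP11-669N7.2 moved more steeply with the chromosome 18 share than VCX3B did. It stood at 20.1 CPM in the lowest and 8.35 CPM in the highest of these groups in set 3, and at 27.6 and 8.46 CPM in set 4, while VCX3B stood at 231 and 204 CPM in set 3, and at 119 and 89.6 CPM in set 4. Its ratio was also taken separately in the cells below and above the set's median share, within each of which the share still varied. In cells of set 3 below the median share it stood at 19.4 CPM in on cells and 7.86 CPM in off cells, a ratio of 2.47 (1.68 to 3.76), and in the cells above it at 10.1 and 5.14 CPM, a ratio of 1.96 (1.26 to 3.20). In set 4 the ratios were 2.69 (2.23 to 3.25) below and 2.70 (2.05 to 3.57) above. BAALC had ratios of 1.22 (1.05 to 1.43) and 1.27 (1.08 to 1.496) in the lower and upper cells of set 3, and of 1.22 (1.09 to 1.36) and 1.247 (1.10 to 1.41) in those of set 4.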

How the data were processed

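Per the labels' protocols, washed cells were loaded with a Chromium Single-cell 3' kit, version 2. Raw UMI counts of 19238 genes in 8173 cells, as the authors deposited them, were analysed; their table of log values was not used here. The submitters' processing notes name Cell Ranger 3.0.0, Seurat 3.0, hg19 and mm10, with no role for each; how reads of near-identical genes were assigned is not stated. Sources used here state no filter on cells or doublets; no doublet caller was run and free RNA was not removed.

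Counts were summed over on cells and over off cells of a set and divided by the group's total (CPM). Summed UMIs were 41975628 in on cells and 7838930 in off cells of set 3, and 19427849 and 27769514 in set 4. Genes with at least 20 CPM in on or off cells of both sets were compared on log2(CPM + 1), which understates differences of weak genes; 1.5-fold described size. Intervals are exact Poisson (CPM), exact conditional binomial (ratios) and Clopper-Pearson (shares). Each set is 1 library and cells are not replicates, so no test was run and no p-value computed. The calculation was checked on simulated sums with 2-fold changes and counting error only, at the group sizes of set 3. That check does not cover 1.5-fold changes or single outlying cells.

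Genes were named by a fixed rule: the 10 farthest above and below 0 in set 3, the 5 farthest above and below 0 in both sets, 2 members of each of 29 lists, and a few set genes; genes chosen otherwise are marked. The groups, lists and rule were chosen with earlier results of these data known. Of all genes, 15431 (94.8% of UMIs) matched a chromosome in RefSeq GRCh38.p14, used for names, order and promoter windows; sequences were aligned with Biopython 1.88. Analyses used Python 3.11.15, NumPy 2.4.6, SciPy 1.17.1 and pandas 2.3.3.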

Additional observations from a re-analysis of the deposited data

Results flagged for a closer look

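C11orf96 and ISG15 differed between on and off cells in opposite directions in the 2 sets, and this contrast between the sets was not tested. C11orf96 had a log2 difference on minus off of -2.08 in set 3 and 0.13 in set 4; without the 1 off cell that held 872 of its UMIs, the set 3 value was 0.09. ISG15 had a log2 difference of -0.61 in set 3 and 0.25 in set 4. The largest count of ISG15 in 1 cell was 48 UMIs among off cells of set 3 and 59 UMIs among on cells of set 4.

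In set 1, which is in neither group comparison, 1 cell held 7 VCX3B UMIs, above the 3 counts that a count of 0 allows. It had 26712 UMIs in all, 0 VCX UMIs and 182 S100B UMIs, and its barcode occurred in no other set. Among on cells of sets 3 and 4, 93.7% and 91.4% had a VCX UMI.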

How the results depend on the processing

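The count of 2 genes in set 3 became 1 at 2-fold, with a pseudocount of 10 CPM, with no minimum of UMIs and with groups called after thinning to 20000 UMIs. It was 0 with a minimum of 50 CPM, 4 with mitochondrial and ribosomal protein genes out of the totals, 5 in thinned sums and 6 in cells with a low G2 and M share. In set 4 the count of 0 became 1 with on cells of 10 or more VCX3B UMIs, with thinned groups, and with those genes out of the totals, where RP11-669N7.2 passed 20 CPM and 1 gene was called in both sets. At a log2 difference of 0.32 the counts were 24 and 10; with no minimum CPM they were 191, 39 and, in both sets, 3. Chosen after seeing the data, a minimum of 2 CPM gave 57, 20 and 2, and leaving out the off cell with most C11orf96 UMIs gave 1 in set 3 and a C11orf96 difference of 0.0857. The other counts stayed within 1.5 times the value reported. RP11-669N7.2 kept a log2 difference of 0.61 to 1.30 in set 3 and 0.97 to 1.76 in set 4 over 12 alternatives.

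On cells in sets 3 and 4 were 65.9% and 31.4% with at least 30000 UMIs, 55.4% and 24.9% with no minimum, 41.3% and 16% after thinning, 34.0% and 12.6% at 10 or more VCX3B UMIs and 79.0% and 42.1% at 2 or more. Off cells were 10.9% and 40.1% with at least 30000 UMIs and 18.1% and 50.03% after thinning. The chromosome 18 log2 difference was -0.0585 in set 3 with on cells of 10 or more, and -0.0651 in set 3 and -0.0721 in set 4 in cells with a low G2 and M share, where chromosome 7 in set 3 turned to -0.0214. Elsewhere chromosome 7 kept its sign: in set 3 it was 0.00785 with on cells of 2 or more, 0.00838 with no minimum of UMIs and 0.0408 with thinned groups, and in set 4 it was 0.0378 with on cells of 2 or more, 0.0518 with 10 or more and 0.0500 with thinned groups. The causes were not tested.

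Over the named genes, 1696 of 1800 alternative values stayed within the counting interval, 103 moved beyond it and 1, C11orf96, changed sign. No paired analysis was possible because no replicate numbers tie samples and no test was run; on and off cells were compared within each set. The 227 off cells of set 3 were chosen for a VCX3B count of 0, so that count sets no limit on its level there. Genes under about 20 CPM are poorly measured in so small a group.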

Other observations

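Among genes listed, from earlier results of these data, as marking single barcode sets, PLAT, a plasminogen activator listed as high in set 1, stood at 26.5 CPM in on cells and 24.9 CPM in off cells of set 3, and at 24.2 and 18.1 CPM in set 4, a ratio of 1.34 there (1.18 to 1.52). MMP1, a secreted collagenase listed as high in set 1, stood at 1.19 CPM in on cells and 2.42 CPM in off cells of set 3, and at 1.65 and 1.44 CPM in set 4. In set 3 the off value rested on 19 UMIs in 6 cells, with 12 in a single cell. The on value there rested on 50 UMIs in 22 cells, with 13 in a single cell. HLA-DRA, an MHC class II chain, stood at 0.572 and 0.383 CPM in set 3, and at 2.37 and 1.26 CPM in set 4. BST2, a membrane protein induced by interferon, stood at 175 CPM in on cells and 182 CPM in off cells of set 3, and at 150 and 152 CPM in set 4. SLC7A11, the cystine transporter, was weak and lower in on cells, at 6.50 and 8.67 CPM in set 3, a ratio of 0.750 (0.573 to 0.993), and at 1.70 and 2.77 CPM in set 4, a ratio of 0.613 (0.395 to 0.932).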
